A study of Mus musculus with 3 samples.

Results

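The 10 genes described here are white adipocyte genes that can be read in whole skin. They are Pparg, the adipocyte transcription factor, the secreted proteins Adipoq, Lep, Cfd and Retn, the lipid droplet proteins Plin1 and Cidec, the lipid uptake genes Lpl and Fabp4, and the enzyme Car3. They were chosen by gene symbol, and each symbol matched 1 of the 21877 gene rows found at all 3 ages. FVB mice, an inbred strain, gave the skin: embryos at E18.5 (day 18.5 of gestation), pups at P3 (day 3 after birth) and adults of 10 weeks, and the column headings call all of them WT. No other allele, agent or treatment is named for any age, and the sources used here do not give body site, hair cycle stage or pooling of animals. The values are FPKM, sequenced fragments scaled to transcript length and to library size, with 1 authors' average per gene and age. Each average is of 2 biological replicates, going by the design text. Since no single replicate was used here, no value has an SD, no difference has a p-value, and none could be set against the spread between animals.

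Dermal white adipose tissue lies beneath the reticular dermis and around the lower hair follicles, and in the mouse it forms around the time of birth and later changes with the hair cycle. Its cells arise from fibroblast-related precursors. In differentiating adipocytes C/EBP factors induce PPAR gamma, the product of Pparg, which then switches on the genes of fatty acid uptake, of lipid droplets and of the secreted adipokines. Brown adipocytes use many of the same genes, and Lpl, Fabp4 and Car3 are also known from muscle, vessels or macrophages, so that the genes mark fat cells best as a group.

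Skin at P3 had the lowest value of 9 of the 10 genes, and skin at 10 weeks had the highest value of 8. Summed over the 10 genes, FPKM came to 6406 at E18.5, 1953 at P3 and 10481 in adults, which was 1.08%, 0.323% and 1.60% of the FPKM of all genes. Lep alone was lowest at E18.5, and Pparg and Fabp4 alone were highest there. All 30 values carried the status OK in the deposited tables.

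Each pair of ages was compared by the log2 ratio of FPKM + 1, later age over earlier age. The words higher and lower are used below for ratios of 2-fold or more on this scale, a log2 difference of 1. At P3 against E18.5, 9 of the 10 genes were lower and 1 was higher, while 9.42% and 9.56% of the 14653 genes compared were. The median difference was -1.73 for the 10 genes and 0.03 for all genes. At 10 weeks against P3, 10 of 10 were higher, against 19.8% of all genes, with medians of 2.66 and 0.14. At 10 weeks against E18.5, 4 were higher and 0 lower, against 16.1% and 6.92% of all genes, with medians of 0.83 and 0.22. The course of 9 genes, lower at P3 and higher again at 10 weeks by 2-fold each, was that of 812 of 14653 genes, or 5.54%. Each age enters 2 of the comparisons, so that an error in 1 value would enter both. In a piece of whole skin, fewer fat cells, less RNA per fat cell and a larger share of RNA from other cells cannot be told apart.

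**Figure D1:**
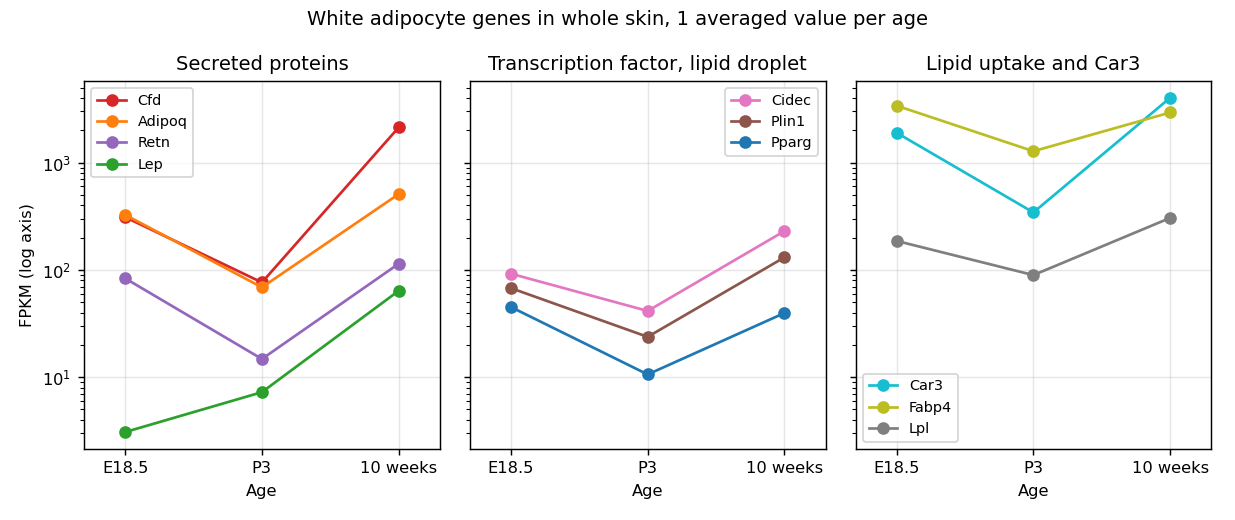
FPKM on a log axis of the 10 genes at E18.5, P3 and 10 weeks, with 1 averaged value per gene and age joined by lines. The 9 genes other than Lep had their lowest value at P3, and Lep was at 3.08, 7.25 and 63.9 FPKM.

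Upstream sequences were available from RefSeq (build GRCm38.p6) for 7 of the 10 genes, in 10 windows of 250 bases before to 50 after a transcription start, 3 of them for Pparg and 2 for Cidec. Both strands were searched for the C/EBP core TTGCNNAA, for the TATA box TATAAA and for the direct repeat bound by PPAR and RXR with at most 2 mismatches. The C/EBP core was found in 4 of the 10 windows, belonging to Lep, Pparg, Plin1 and Cidec, and in 10.8% of all 32851 windows. The TATA box was in 1 of the 10 windows, window 2 of Pparg, and in 13.6% of all, and the direct repeat in 0 of the 10 and in 3.86% of all. With 10 windows, 0 cannot be told apart from that share. Lpl, Fabp4 and Car3 had no window, and sequence outside the windows was not searched. The 4 windows with the C/EBP core are shown because they include Lep, whose course differed from that of the 9 other genes, and 3 genes that shared the common course. Capitals mark the core, and no other searched motif lies in these 4 windows.
Lep, chr6:29059971-29060270, plus strand: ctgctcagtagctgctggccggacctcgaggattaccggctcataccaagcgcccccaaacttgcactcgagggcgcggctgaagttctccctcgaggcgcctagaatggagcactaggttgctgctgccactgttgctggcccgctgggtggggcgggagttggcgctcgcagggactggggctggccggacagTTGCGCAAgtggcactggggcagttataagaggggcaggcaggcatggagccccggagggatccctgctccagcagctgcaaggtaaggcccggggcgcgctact
Pparg, window 3, chr6:115421816-115422115, plus strand: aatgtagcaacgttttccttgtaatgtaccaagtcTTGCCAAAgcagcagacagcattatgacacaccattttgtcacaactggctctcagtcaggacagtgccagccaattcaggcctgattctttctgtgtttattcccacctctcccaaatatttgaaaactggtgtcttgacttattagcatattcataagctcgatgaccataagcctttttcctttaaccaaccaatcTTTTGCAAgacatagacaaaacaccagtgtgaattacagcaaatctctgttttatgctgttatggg
Plin1, chr7:79732727-79733026, minus strand: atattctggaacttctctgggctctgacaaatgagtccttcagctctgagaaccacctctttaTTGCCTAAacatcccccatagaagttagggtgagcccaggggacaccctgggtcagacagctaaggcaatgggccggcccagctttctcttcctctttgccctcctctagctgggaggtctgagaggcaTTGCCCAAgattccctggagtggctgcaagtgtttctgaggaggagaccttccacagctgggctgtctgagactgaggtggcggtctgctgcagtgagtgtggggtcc
Cidec, window 2, chr6:113434715-113435014, minus strand: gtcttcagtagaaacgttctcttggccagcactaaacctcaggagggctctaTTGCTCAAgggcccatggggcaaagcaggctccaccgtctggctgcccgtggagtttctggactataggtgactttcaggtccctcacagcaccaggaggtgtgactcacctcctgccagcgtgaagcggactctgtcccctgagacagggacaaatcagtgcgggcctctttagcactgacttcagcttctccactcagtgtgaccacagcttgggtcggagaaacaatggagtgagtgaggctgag
Positions are counted from the start, with bases before it negative. In Lep the core reads the same on both strands and begins at -55. In window 3 of Pparg 1 match begins at -215 and another, on the opposite strand, at -16. In Plin1 they begin at -187 and -58, and in Cidec the match begins at -198. A match is a string of letters and was not tested for binding, and the FPKM values do not separate the starts of Pparg or Cidec.

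Pparg (mm9 chromosome 6, 115311239 to 115440419) encodes the nuclear receptor that adipocytes need to form and to persist. It measured 45.1 FPKM at E18.5, 10.6 at P3 and 39.6 in adults. The value at P3 was thus the low one, and the embryonic and adult values lay close together, with a log2 difference of -0.18 at 10 weeks against E18.5. Its difference was -1.99 at P3 against E18.5 and 1.81 at 10 weeks against P3. Of the 5 other genes of the PPAR and RXR group, Rxra, the usual partner of PPAR gamma, stood at 34.3, 60.4 and 45.2 FPKM, Rxrb at 17.6, 17.7 and 17.98 FPKM, and Ppard at 12.4, 20.3 and 10.8 FPKM, none of them called in any comparison. Rxrg, at 5.89, 1.05 and 8.43 FPKM, and Ppara, at 5.76, 0.885 and 3.22 FPKM, were both lower at P3 and higher again at 10 weeks.

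Among 14 further transcription factors of adipocytes, 4 were lower at P3 against E18.5 and 1 higher (median -0.61), and 9 were higher and 0 lower at 10 weeks against P3 (median 1.26). Nr1h3, the oxysterol receptor LXR alpha, stood at 10.2, 2.35 and 17.7 FPKM, and Mlxipl, the carbohydrate-responsive factor ChREBP, at 5.11, 0.865 and 10.7 FPKM. Ebf2, a factor of precursors and brown adipocytes, was at 3.78, 0.484 and 5.47 FPKM. Its relative Ebf1 was at 12.5, 4.31 and 17.9 FPKM. These 4 had the course of Pparg. The C/EBP genes had other courses. Cebpd was highest in the adult (5.04, 2.93 and 37.2 FPKM), and Cebpb was the gene that was higher at P3 (32.4, 73.6 and 102 FPKM). Cebpa, which keratinocytes also express, was not called in any comparison (82.3, 123 and 133 FPKM).

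Adipoq (chromosome 16, 23146609 to 23158041) encodes adiponectin, a hormone made almost only by adipocytes. It measured 326 FPKM at E18.5, 68.8 at P3 and 509 in adults. Its rank among all genes by FPKM was 252, 1276 and 198. Its log2 difference was -2.23 at P3 against E18.5, 2.87 at 10 weeks against P3 and 0.64 at 10 weeks against E18.5, the last below 2-fold. Retn (chromosome 8, 3655789 to 3658095), the gene of resistin, which in mice is an adipocyte product, was at 83.5, 14.8 and 114 FPKM. Its differences of -2.42, 2.87 and 0.45 were near those of Adipoq.

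Cfd (chromosome 10, 79353598 to 79355401) encodes adipsin, the factor D protease of the alternative complement pathway. It had the largest difference of the 10 genes at 10 weeks against P3. It measured 310.4 FPKM at E18.5, 76.4 at P3 and 2131 in adults, where it was the gene of rank 29. The log2 differences were -2.01, 4.78 and 2.78. At E18.5 and P3 its FPKM was 0.951 and 1.11 times that of Adipoq, and at 10 weeks 4.19 times.

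Lep (chromosome 6, 29010221 to 29023876), the gene of the satiety hormone leptin, was the member with another course. It measured 3.08 FPKM at E18.5, 7.25 at P3 and 63.9 in adults, so that its value was larger at each later age. The difference at P3 against E18.5 was 1.02, just past 2-fold, and it was under 2-fold with a pseudocount of 5 (0.60) and with 3 other scalings of the ages (0.85 to 0.93). At 10 weeks it was higher than at P3 by 2.98 and than at E18.5 by 3.99. The value at E18.5 is low, with rank 11220, and its precision is unknown because read numbers were not used here.

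Of 14 other secreted proteins of fat, 7 were lower and 1 higher at P3 against E18.5 (median -0.77), and 11 were higher and 0 lower at 10 weeks against P3 (median 1.85). Agt, the precursor of angiotensin, stood at 37.3, 4.80 and 18.9 FPKM, and Rbp4, the carrier of retinol, at 66.8, 11.7 and 76.1 FPKM. Rarres2, the gene of the chemoattractant chemerin, was at 119, 47.4 and 641 FPKM, and the Wnt inhibitor Sfrp5 at 0.778, 0.499 and 13.9 FPKM. Among relatives of Adipoq, the C1q/TNF-related genes, 3 of 9 were lower and 0 higher at P3 against E18.5, and 4 were higher and 0 lower at 10 weeks against P3. C1qtnf9 had the course of Adipoq (12, 3.82 and 10.9 FPKM), C1qtnf2 and C1qtnf6 were lower at P3 and past 2-fold in no other comparison (26.7, 8.50 and 15.6 FPKM, and 43.6, 16 and 21.8 FPKM), and C1qtnf1 and C1qtnf7 were highest in adults (15.5, 8.58 and 59.9 FPKM, and 4.09, 3.41 and 13.6 FPKM). C1qtnf3 was at 23.7, 15.1 and 7.99 FPKM and C1qtnf12 at 38.5, 37.3 and 35.8 FPKM. The largest differences of the secreted proteins belonged to Retnla, a relative of Retn that macrophages also make, at 0.235, 18.7 and 2905 FPKM. The other resistin genes were low, with Retnlg at 1.12, 0.324 and 7.44 FPKM and Retnlb listed at 0 at every age. Members of this family are similar in sequence, and how shared reads were divided is not given in the sources used here.

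Receptors of the adipokines and the complement factors that act with adipsin were listed with them. Of the 9 of these 10 genes that were compared, 4 were lower and 0 higher at P3 against E18.5 (median -0.90), and 5 were higher and 0 lower at 10 weeks against P3 (median 2.89). C3, the central complement protein, stood at 40.9, 2.84 and 223 FPKM, and Cfb, the factor that adipsin cleaves, at 3.08, 2.55 and 62.3 FPKM. The receptor gene C3ar1 was at 2.86, 0.837 and 12.6 FPKM. Another receptor gene, C5ar1, was at 3.53, 0.984 and 24.4 FPKM. These complement genes are also expressed by fibroblasts or macrophages. Lepr, the leptin receptor, was at 17.99, 5.96 and 12.4 FPKM, lower at P3 and not called at 10 weeks in either comparison.

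Plin1 (chromosome 7, 86866050 to 86877662) encodes perilipin 1, which coats the large lipid droplet of adipocytes and controls access of lipases. It measured 67.7 FPKM at E18.5, 23.8 at P3 and 131 in adults, with differences of -1.47, 2.41 and 0.94. Cidec (chromosome 6, 113374630 to 113385749), whose protein lets droplets fuse into a single large one, was at 92.2, 41.4 and 230.1 FPKM, with differences of -1.14, 2.45 and 1.31. Both were lowest at P3, and of the pair only Cidec passed 2-fold at 10 weeks against E18.5. Plin1 lay just under that threshold.

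The relatives of Plin1 and Cidec did not all share this course. Plin4, a perilipin of adipocytes and muscle, stood at 14.0, 12.5 and 108 FPKM, and Plin2, the perilipin of small droplets in many cells, at 53.8, 48.0 and 161 FPKM. Both were higher at 10 weeks than at either other age, and the values at P3 and E18.5 were within 2-fold. Plin3, another widely expressed perilipin, was at 42, 31.7 and 42.5 FPKM and not called. Cidea, which sebaceous glands and brown adipocytes express strongly, was at 121, 25.6 and 86.9 FPKM, and so was lower at P3 and higher again at 10 weeks. Among 12 droplet genes compared beside the members, 5 were lower and 0 higher at P3 against E18.5 (median -0.52), and 7 were higher and 0 lower at 10 weeks against P3 (median 1.40). They included G0s2, an inhibitor of adipose triglyceride lipase (146, 21.4 and 80.0 FPKM), and Fitm1, a fat storage protein known mainly from muscle (11.9, 1.31 and 58.6 FPKM). Plin5, the perilipin of oxidative tissues, was at 5.78, 0.616 and 3.91 FPKM.

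Lpl (chromosome 8, 71404454 to 71430831) encodes lipoprotein lipase, which releases fatty acids from circulating lipoproteins. It measured 186 FPKM at E18.5, 89.5 at P3 and 305 in adults. Its difference at P3 against E18.5 was -1.05, the smallest size among the 9 genes that were lower, and it was 1.76 at 10 weeks against P3. Of 7 of its 10 listed partners and relatives that were compared, 3 were lower and 1 higher at P3 against E18.5 (median -0.64), and 1 was higher and 0 lower at 10 weeks against P3 (median 0.57). Gpihbp1, which carries the lipase to the capillary wall, stood at 46.9, 16.3 and 22.1 FPKM, lower at P3 and also lower at 10 weeks than at E18.5. The inhibitor gene Angptl8 was at 14.6, 0.728 and 3.01 FPKM. The endothelial lipase gene Lipg was the higher one at P3 (1.80, 7.33 and 3.66 FPKM), and its relative Liph, a phospholipase of the hair follicle, was at 5.49, 15.4 and 8.31 FPKM. Apoc3, an inhibitor of the lipase, was low at every age (1.71, 0.0521 and 0.246 FPKM) and was 1 of the 3 genes lower at P3, with a difference of -1.36. Angptl4, another inhibitor, stood at 27.6, 24.2 and 46.9 FPKM and the maturation factor Lmf1 at 8.79, 5.33 and 10.6 FPKM, neither past 2-fold.

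Fabp4 (chromosome 3, 10204343 to 10208576) encodes the adipocyte fatty acid-binding protein aP2, which endothelial cells and macrophages also make. It was the most abundant of the 10 genes at E18.5 and P3, with 3394 and 1277 FPKM, and second to Car3 at 10 weeks, with 2933 FPKM. Its rank among all genes was 12, 80 and 17. Its differences were -1.41 at P3 against E18.5, 1.20 at 10 weeks against P3 and -0.21 at 10 weeks against E18.5, so that its adult and embryonic values lay close together, as those of Pparg did. Fabp5, the epidermal relative that lies on the same chromosome (10012606 to 10016610), had its highest value at P3, with 1184, 2103 and 449.9 FPKM, and was lower at 10 weeks against P3, with a difference of -2.22. Fabp4 exceeded Fabp5 in FPKM at E18.5 and at 10 weeks, and Fabp5 exceeded Fabp4 at P3. Fabp3, the heart and muscle form, was at 10.8, 5.41 and 85.8 FPKM. Of the retinoid-binding relatives, Crabp2 was at 30.2, 85.4 and 69.6 FPKM, Crabp1 at 26.4, 14.0 and 43.7 FPKM, and Rbp2 at 47.3, 55.5 and 4.96 FPKM. Fabp9 and Fabp12, neighbours of Fabp4 within 100 kb, stayed below 0.30 FPKM at every age.

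Car3 (chromosome 3, 14863538 to 14872373) encodes carbonic anhydrase III, a cytosolic enzyme abundant in adipocytes and in slow muscle fibres. It measured 1898 FPKM at E18.5, 343 at P3 and 4023 in adults, where it had rank 5 among all genes. Its difference at P3 against E18.5, -2.46, was the largest in size of the 10 genes, and at 10 weeks against P3 it was 3.55. At 10 weeks against E18.5 it was 1.08, which fell below 2-fold with each of 3 other scalings (0.78 to 0.87). Its neighbours Car2 and Car1 were low, Car2 at 6.49, 4.31 and 2.15 FPKM and Car1 at 0.228, 0.0100 and 0.0466 FPKM. Car13 was at 39.3, 74.9 and 39.0 FPKM, Car6 at 7.46, 34.8 and 8.37 FPKM and Car12 at 20.0, 25.4 and 10.9 FPKM, each with its largest value at P3. The mitochondrial form Car5b was at 16.8, 3.58 and 17.2 FPKM, the course of the fat genes at a lower level. The 18 skeletal muscle markers summed to 5381, 461 and 28186 FPKM, so that muscle genes were lowest and highest at the same ages as Car3. The part of muscle in the Car3 values was not tested.

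**Figure D2:**
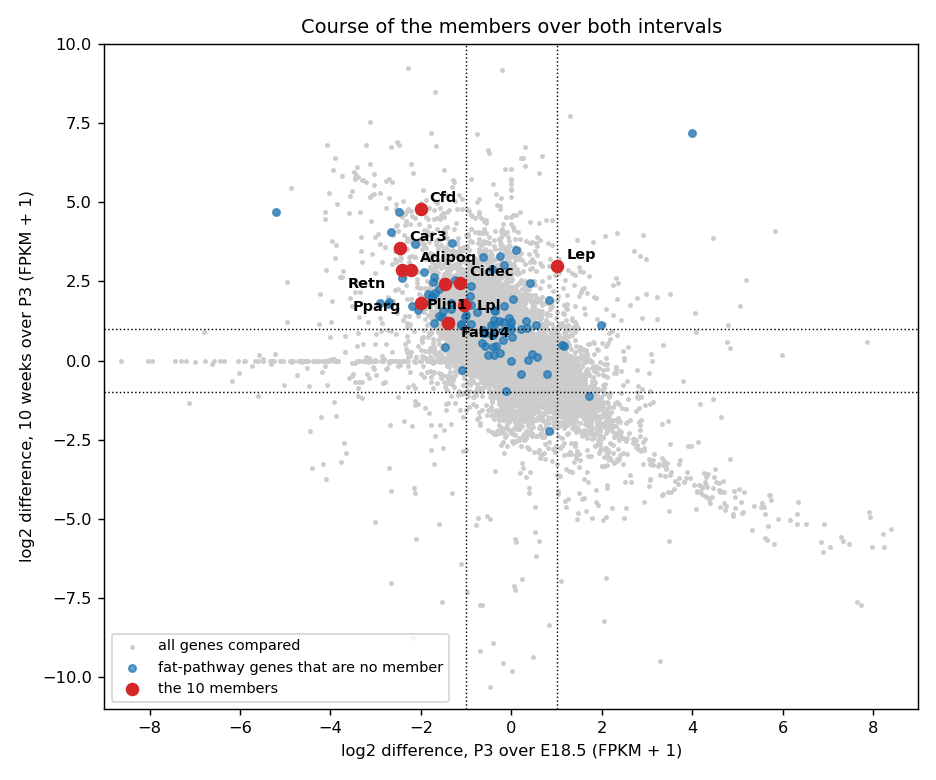
Log2 difference at P3 over E18.5 (horizontal) against that at 10 weeks over P3 (vertical) for all genes compared (grey), 91 other fat-pathway genes (blue) and the 10 genes (red), with dotted lines at 2-fold and 3 genes outside the plotted range. Of the 10 genes, 9 lie at the upper left, past 2-fold on both axes, and Lep lies at the upper right at 1.02 and 2.98. The axes share the P3 value, so that opposite signs are in part built in.

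Set against Adipoq within each age, where a scale factor common to the whole library cancels, the genes of fat changed in their proportions. Retn stayed at 0.256, 0.215 and 0.224 times Adipoq over the 3 ages. The droplet genes were highest relative to Adipoq at P3, Plin1 at 0.207, 0.345 and 0.257 times and Cidec at 0.283, 0.602 and 0.452 times. Lep was at 0.00944 times Adipoq at E18.5, 0.105 at P3 and 0.126 in adults. The larger step in this ratio came between E18.5 and P3, where Adipoq itself went to 0.211 times its E18.5 value. The FPKM of Lep alone was 2.36 times as high at P3 as at E18.5. At 10 weeks it was 8.81 times as high as at P3, so that the larger step of Lep itself came after P3. Fabp4 was at 10.4, 18.6 and 5.76 times Adipoq, and Lpl at 0.571, 1.3 and 0.600 times. Pparg was at 0.138, 0.154 and 0.0778 times, its adult value being the lowest. Fabp4 made up 53.0%, 65.4% and 28.0% of the summed FPKM of the 10 genes, Car3 29.6%, 17.6% and 38.4%, and Cfd 4.85%, 3.91% and 20.3%. In the order of levels at E18.5 the genes ran Fabp4, Car3, Adipoq, Cfd, Lpl, Cidec, Retn, Plin1, Pparg and Lep. At 10 weeks they ran Car3, Fabp4, Cfd, Adipoq, Lpl, Cidec, Plin1, Retn, Lep and Pparg. Whether neighbours in this order differ beyond the spread between animals could not be tested.

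**Figure D3:**
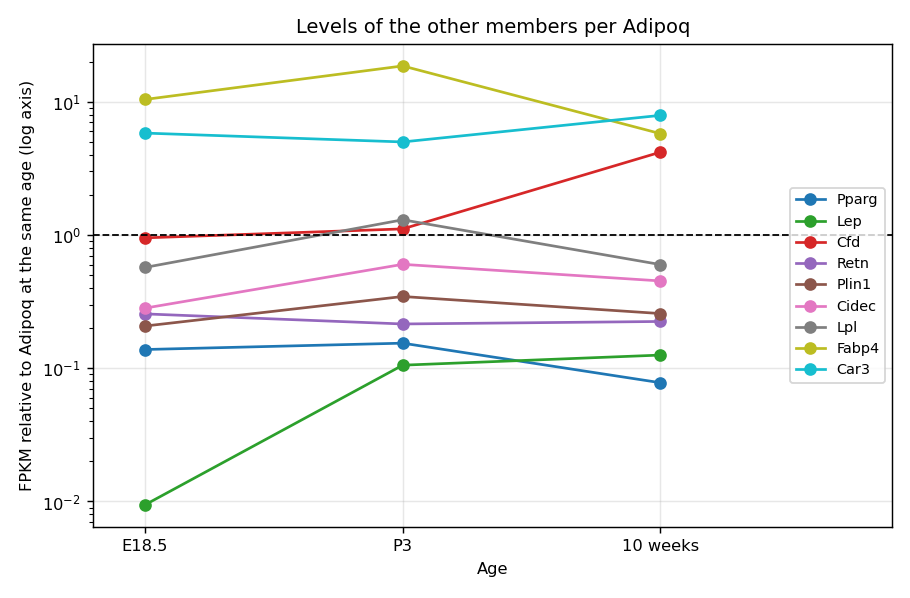
FPKM of 9 genes divided by that of Adipoq at the same age, on a log axis, with the dashed line at the Adipoq level. Lep is at 0.00944 at E18.5 and 0.105 at P3, Cfd is at 1.11 at P3 and 4.19 at 10 weeks, and Retn lies between 0.215 and 0.256 throughout. Adipoq itself had its lowest value at P3, with 68.8 FPKM.

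The wider fat programme was described with 7 lists, of transcription control, secreted proteins, lipid droplets, lipid uptake, fat synthesis, lipolysis and insulin response, which hold 92 genes beside the 10. Of 91 compared, 33 were lower and 5 higher at P3 against E18.5 (36.3% and 5.49%, median -0.51), beside 9.42% and 9.56% of all genes. At 10 weeks, 61 were higher and 2 lower than at P3 (67.0% and 2.20%, median 1.29), beside 19.8% and 9.98% of all genes. Against E18.5, 30 were higher and 5 lower at 10 weeks (33.0% and 5.49%, median 0.67), beside 16.1% and 6.92% of all genes. The course of the 9 genes, down at P3 and up again, was shared by 31 of 91, or 34.1%. The lists were chosen with earlier results of these data known.

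Of the 7 lists without the 10 genes, lipolysis had the medians nearest to theirs at P3 against E18.5 and at 10 weeks against P3. In the latter comparison the secreted proteins had nearly the same median (1.85). At 10 weeks against E18.5 the lipolysis median was 0.26, beside 0.83 for the 10 genes. Of 15 genes, 8 were lower and 0 higher at P3 against E18.5 (median -1.10), and 13 were higher and 0 lower at 10 weeks against P3 (median 1.85). Adrb3, the adrenergic receptor of adipocytes, stood at 8.25, 0.467 and 23.3 FPKM, and Pnpla2, adipose triglyceride lipase, at 105, 28.5 and 125 FPKM. The adenosine receptor gene Adora1, which restrains lipolysis, was at 2.08, 0.655 and 7.43 FPKM. The natriuretic peptide receptor genes Npr1 and Npr3 were at 8.62, 3.06 and 22.5 FPKM and at 2.87, 4.15 and 27.1 FPKM. Of 10 insulin response genes, 4 were lower and none higher at P3 against E18.5 (median -0.43), and 7 were higher and none lower at 10 weeks against P3 (median 1.41). Slc2a4, the insulin-sensitive glucose transporter of fat and muscle, stood at 15.6, 2.78 and 47.4 FPKM, and Pde3b, the phosphodiesterase through which insulin restrains lipolysis, at 10.3, 2.36 and 12.5 FPKM. Pik3r1, a subunit of the insulin-activated lipid kinase, was at 32.5, 15.5 and 42 FPKM and Tbc1d4, which holds the glucose transporter inside the cell, at 7.25, 3.11 and 10.2 FPKM. Trarg1, a vesicle protein of fat, was at 8.33, 6.25 and 20.5 FPKM.

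Fat synthesis genes split. Of 19, 6 were lower and 2 higher at P3 against E18.5 (median -0.40), and 13 were higher and 0 lower at 10 weeks against P3 (median 1.25). Thrsp, a regulator of fatty acid synthesis, stood at 288, 6.80 and 200.045 FPKM, and Gpd1, which makes the glycerol backbone, at 298, 38.9 and 139 FPKM. Pcx, pyruvate carboxylase, was at 52.5, 14.7 and 63.1 FPKM and the phosphatidate phosphatase gene Lpin1 at 10.7, 2.87 and 17.7 FPKM. The elongase gene Elovl6 was higher at each later age, at 13.7, 57.3 and 127 FPKM. The desaturase gene Scd1, which sebaceous glands also express, stood at 99.4, 107 and 1223 FPKM. Of 10 uptake genes beside Lpl and Fabp4, 2 were lower and 1 higher at P3 against E18.5 (median -0.45), and 4 were higher and 2 lower at 10 weeks against P3 (median 0.93). Cd36, the fatty acid receptor, was at 163, 87.4 and 296 FPKM, Aqp7, the glycerol channel of adipocytes, at 6.46, 2.47 and 6.48 FPKM, and the transporter gene Slc27a1 at 19.9, 16.2 and 40.1 FPKM. Slc27a4, a transporter known from the epidermal barrier, was at 17.7, 60.7 and 27.3 FPKM.

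Precursor genes ran differently from the 10 genes in part. Dlk1, or Pref-1, which preadipocytes lose as they differentiate, stood at 163, 10.9 and 0.306 FPKM, lower at each later age, by 3.78 and then 3.19 on the log2 scale. Cd34, carried by precursors and by vessels, was at 104, 30.2 and 323 FPKM, Pdgfra at 30.8, 10.6 and 52.6 FPKM, Ly6a, or Sca-1, at 98.7, 41.4 and 855 FPKM, and Pi16, a gene of fibroblast-like progenitors, at 15.3, 8.28 and 208 FPKM. Gata2, a factor that restrains adipocyte differentiation, was at 5.65, 0.901 and 6.0 FPKM. Of 13 precursor genes, 5 were lower and 1 higher at P3 against E18.5 (median -0.81), and 8 were higher and 3 lower at 10 weeks against P3 (median 1.19). The gene higher at P3 was Gata3, at 14.6, 39.3 and 32.0 FPKM. Beside Dlk1, the genes lower at 10 weeks than at P3 were Cd24a (199, 276 and 88.8 FPKM) and Wnt10b (10.8, 14.3 and 3.85 FPKM).

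Markers of brown adipocytes were read beside the 10 genes. Ucp1, the uncoupling protein that defines them, measured 64.5 FPKM at E18.5, 2.54 at P3 and 0.0308 in adults. The 11 brown markers summed to 747, 94.3 and 707 FPKM, with 0 of 11 listed at 0 at any age and 3, 4 and 3 below 1 FPKM. Cox8b and Cox7a1, which muscle also expresses, stood at 316, 17.2 and 402 FPKM and at 231, 14.9 and 198 FPKM. Elovl3, shared with the sebaceous list, was at 3.24, 29.9 and 13 FPKM. The part of brown fat in the embryonic values of the 10 genes was not tested. At 10 weeks Ucp1 was close to 0.

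Markers of skeletal muscle and of 3 other cell types below the epidermis also had their lowest sums at P3, but not all had their highest in adults. Of the 18 skeletal muscle markers, 17 were lower and 0 higher at P3 against E18.5 (median -3.06). At 10 weeks 18 were higher than at P3 (median 5.99), and 18 were higher than at E18.5 (median 3.11). The 12 endothelial markers summed to 287, 95.2 and 256 FPKM. Of these, 11 were lower and 0 higher at P3 against E18.5, 9 were higher and 0 lower at 10 weeks against P3, and 1 was higher and 0 lower at 10 weeks against E18.5. The 12 dermal fibroblast markers summed to 4261, 1656 and 4210 FPKM. Of these, 9 were lower and 0 higher at P3 against E18.5, 6 were higher and 0 lower at 10 weeks against P3, and 2 were higher and 5 lower at 10 weeks against E18.5. Much of their adult sum was Dcn, the matrix proteoglycan decorin, at 572, 205 and 2217 FPKM, and without it the sum was 3689, 1451 and 1993 FPKM. The 14 macrophage markers summed to 335, 126 and 3040.5 FPKM, with 8 lower and 0 higher at P3 against E18.5 and 13 higher and 0 lower at 10 weeks against P3. The 8 basal keratinocyte markers went the other way, at 2153, 5373 and 1658 FPKM, with 4 higher and 0 lower at P3 against E18.5. The 11 sebaceous markers summed to 187, 833 and 811 FPKM, with 10 higher and 0 lower at P3 against E18.5 and 5 higher and 2 lower at 10 weeks against P3. None of these markers was listed at 0 at any age.

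Ratios of the summed FPKM of the 10 genes to the marker sums depended on the cell type chosen. Much of the summed FPKM came from Fabp4 (53.0%, 65.4% and 28.0% at the 3 ages) and Car3 (29.6%, 17.6% and 38.4%). Both genes are also known from muscle, vessels or macrophages, so that the ratios are not of fat cells alone. Over E18.5, P3 and 10 weeks the ratio was 22.3, 20.5 and 40.9 for endothelial markers. It was 1.5, 1.18 and 2.49 for fibroblast markers, and 1.74, 1.35 and 5.26 without Dcn. It was 19.1, 15.5 and 3.45 for macrophage markers, 1.19, 4.24 and 0.372 for skeletal muscle markers, and 2.98, 0.363 and 6.32 for basal keratinocyte markers. Within the 10 genes, Adipoq was 114%, 72.3% and 199% of the endothelial sum, Lpl 64.9%, 94.0% and 119%, and Fabp4 1182%, 1342% and 1144%. These ratios were added after the values were seen. What share the mix of tissues in each piece of skin has in the course of the 10 genes was not tested.

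**Figure D4:**
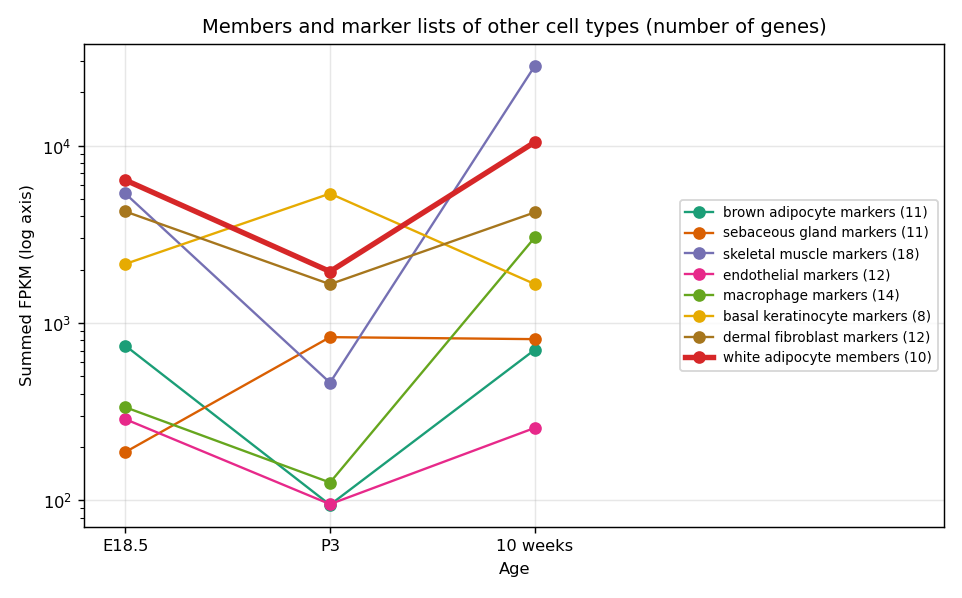
Summed FPKM on a log axis of the 10 genes (thick red line) and of marker lists of 7 other cell types at the 3 ages, with the number of genes in brackets. The sums of the fat genes, muscle, endothelial, macrophage, fibroblast and brown fat markers are lowest at P3. Those of basal keratinocyte and sebaceous gland markers are highest there, the sebaceous sum at 833 FPKM beside 811 at 10 weeks.

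The E18.5 library also differed from the others in sex-linked genes. Ddx3y of the Y chromosome measured 24.1 FPKM at E18.5, 0.0218 at P3 and 0 in adults, while Xist was at 0.0433, 64.6 and 73.0 FPKM. Comparisons of the 10 genes with E18.5 thus set a male pattern beside a female one, and age and sex cannot be told apart in them.

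Among the 9019 other genes that reached 10 FPKM at any age, the 10 whose pair of differences lay nearest to the median of the 10 fat genes were Mlxipl, Phyhd1, Gmpr, Chpt1, Dab2, Flnc, Nr1h3, Maob, Prrx1 and Pxmp2, at distances of 0.02 to 0.22 on the log2 scale. Mlxipl and Nr1h3 are the transcription factors given above, and the others were in no list. Chpt1, an enzyme of phosphatidylcholine synthesis, stood at 52.7, 16.5 and 103 FPKM, and Prrx1, a mesenchymal transcription factor, at 33.9, 9.60 and 56.5 FPKM. Flnc, a filamin of muscle, was at 9.04, 2.14 and 21.2 FPKM. The likeness rests on 3 ages only, and of the 10 fat genes themselves Plin1 lay nearest to their median, at 0.36, with 39 other genes nearer, and Lep farthest, at 2.77.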

How the data were processed

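RNA from skin of FVB mice was sequenced at 3 ages, with Trizol extraction and TruSeq libraries per the labels' protocols. The deposited tables hold FPKM, 1 average per gene and age made by the authors, per the file headers. TopHat2 2.0.7, Cufflinks 2.1.1 and build mm9 are named in the submitters' processing notes. The sources used here give no read numbers, annotation or strand setting, so the depth and the precision of low values are unknown.

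Values of 0 marked as failed were left out (3 genes at E18.5, 7 at P3, none of those described). Coordinates are mm9 with 1 added to each start, since the plain difference of end and start was the RefSeq length for 6271 genes, and that difference plus 1 for 432. Differences used genes that reached 1 FPKM at any age and a pseudocount of 1, which understates changes of low genes; functions were tested on simulated data. No test was run, as there is 1 value per age. Of 258 listed genes 250 matched by symbol and 8 by an older one. Named are the 10 genes, the largest differences of a list, and relatives of at least 10 FPKM, beside other list entries chosen after their values were seen; a few listed genes are not reported here. The 10 genes and all lists were chosen with earlier results of these data known. The planned comparison of protein sequences was not made. Python 3.11.15, pandas 2.3.3 and matplotlib 3.10.9 were used.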

Additional observations from a re-analysis of the deposited data

How the results depend on the processing

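Of 30 differences (10 genes, 3 comparisons), 30 stayed on the same side of 2-fold with a pseudocount of 0.1, 29 with a pseudocount of 5, and 28 each with the median of ratios, the upper quartile, or sums without muscle markers and the 100 highest genes. The exceptions were Lep at P3 against E18.5, which left 0 genes higher with a pseudocount of 5 and with those 3 scalings, and Car3 at 10 weeks against E18.5. A minimum of 5 FPKM, or none, changed no count of the 10 genes. With 3-fold in place of 2-fold, 5 genes were lower and 0 higher at P3 against E18.5, 9 higher at 10 weeks against P3, and 2 higher at 10 weeks against E18.5. The scalings shifted log2 ratios by -0.22 to -0.11, -0.13 to -0.08 and -0.30 to -0.22 in the 3 comparisons. Among all genes past 2-fold, the higher ones were 50.4% at P3 against E18.5 as deposited (1401 higher, 1380 lower) and 37.4% with the upper quartile (1101, 1841). At 10 weeks against E18.5 they were 69.9% (2358, 1014), and 57.0% with the upper quartile (1787, 1349) and 59.6% with sums (1872, 1269). All-gene counts in the 3 comparisons fell to 842 higher and 626 lower, 1596 and 898, and 1274 and 561 with a pseudocount of 5, and to 605 and 586, 1632 and 744, and 1183 and 572 at 3-fold; with a pseudocount of 0.1, 2155 were lower at P3 against E18.5.

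For the 91 pathway genes, a pseudocount of 5 gave 20 lower at P3 against E18.5 and 3 lower at 10 weeks against E18.5, and the upper quartile gave 3 higher at P3 against E18.5. At 3-fold, 3 were higher and 20 lower at P3 against E18.5, 37 higher and 1 lower at 10 weeks against P3, and 15 higher and 0 lower at 10 weeks against E18.5.

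Scaling the ages to equal marker sums of another cell type, a choice made after seeing the data, adds nearly the same amount to every gene, so that calls move with the size of that amount. It was 1.36 for fibroblast and 1.59 for endothelial markers at P3 against E18.5, and -1.35 and -1.43 at 10 weeks against P3. With it 9139 and 10215 of all 14653 genes were higher at P3 against E18.5, and 410 and 363 were lower. The median of the 10 genes minus that of all genes was then -1.64 and -1.62, against -1.76 as deposited. With equal fibroblast sums 2 of the 10 genes were lower at P3 against E18.5, and Cidec (0.21) and Lpl (0.30) changed sign, as did Fabp4 at 10 weeks against P3 (-0.15). With equal endothelial sums 0 were lower, and Plin1 (0.082), Cidec (0.43), Lpl (0.53) and Fabp4 (0.18) changed sign, as did Fabp4 at 10 weeks against P3 (-0.23). At 10 weeks against P3, 7 of the 10 genes were higher with either scaling, beside 1238 and 1190 of all 14655 genes. Leaving out replicates was not run, since each age has 1 averaged value. No paired analysis was possible because the tables hold no values of single replicates.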
